A study of Homo sapiens with 21 samples.

Results

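The lowest doses of a caffeine series in HepG2 cells, 0.01 and 0.1 µM, were pooled and set against untreated cells to ask whether so little caffeine leaves a trace in the polyadenylated transcripts after 24 h. The 6 treated libraries (3 per dose) and the 3 control libraries were chosen by the dose in their titles. They are 9 of the 21 libraries of the series; the other 12, at 1, 10, 100 and 1000 µM, are used here only where named. HepG2 is a human hepatocellular carcinoma line that keeps many functions of hepatocytes. All groups, the control included, were moved from medium with serum into fresh DMEM without serum, with or without caffeine, and RNA was purified on poly(dT) beads, per the labels. The labels do not say whether the 3 libraries of a group came from separate cultures, so p-values measure the spread between these libraries, which may be technical.

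Caffeine is a methylxanthine that blocks adenosine receptors at the levels reached by drinking coffee. At much higher levels it also inhibits cyclic nucleotide phosphodiesterases, opens ryanodine receptors in the endoplasmic reticulum and inhibits kinases of the ATM and ATR family. Hepatocytes clear it with cytochrome P450 enzymes. MATR3 encodes matrin 3, a nuclear matrix protein that binds RNA and DNA and acts in splicing. SCAF8 encodes a protein that binds the tail of RNA polymerase II and acts at the ends of transcription units.

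The 9 libraries held 27867586 to 39571761 counts and 23732 to 24754 features with at least 1 count. All 22 hepatocyte genes checked (ALB, AFP and apolipoproteins among them) passed the filter on low counts, and their summed level was 41620 to 48990 CPM (counts scaled to library size) in the controls and 41390 to 43810 in the treated libraries. Control replicate 3 stood apart. It lay at -53.6 on the first principal component (28.6% of the variance), with the other 8 libraries between -9.55 and 19.8. Mitochondrial transcripts took 14.2% of its counts, against 9.95% to 12.3% in the others. Its log2 CPM fell by 0.28 for each 10 points of GC content of a gene's exons, while the slopes of the other 8 libraries lay between -0.02 and 0.14. Of 9 such library measures compared between arms by exact permutation of the 9 libraries (two-sided, 84 splits, smallest possible p = 0.0238), the GC slope had the smallest p (exact p = 0.0476). A lone measure could not go below 0.214 after Benjamini-Hochberg adjustment over the 9, so no adjusted call was possible for one. Since the library is 1 of 3 controls, the main counts and the genes described at most length are given without it as well.

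Across 16767 tested features, 391 (2.33%) differed between the pooled low doses and control at an adjusted p under 0.05 by edgeR's quasi-likelihood test. Of these, 69 (0.412%) were higher and 322 (1.92%) were lower with caffeine. The differences were small: the median called rise was 1.34-fold, the median called fall was 0.761-fold, and 24 features changed by at least 1 on the log2 scale. The groups of 6 and 3 libraries did not overlap for 385 of the 391, where 2091 of all tested features (12.5%) showed no overlap, 5.3% of the tested features being higher and 7.17% lower with caffeine. Without control replicate 3, 50 features (0.293%) passed, 18 higher and 32 lower, and 44 of them were among the 391. The median log2 fold change of the 322 called falls was -0.39, and -0.30 without control replicate 3. That of the 69 called rises was 0.42 and 0.35. A drop in calls was not particular to control replicate 3. Without 0.01 µM replicates 1, 2 and 3 in turn, 33, 24 and 33 features passed, and without 0.1 µM replicate 1, 45 did. In the fits without a 0.01 µM library the median of the 322 falls was -0.40, -0.40 and -0.38.

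**Figure D1:**
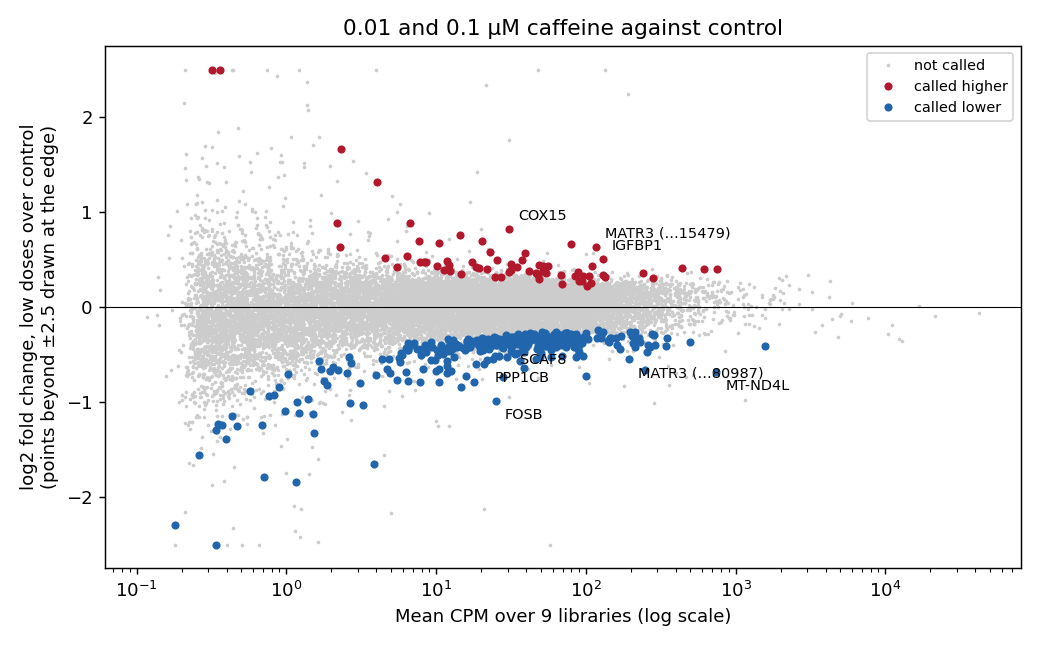
Log2 fold change of the pooled low doses over control (vertical axis) against the mean CPM of the 9 libraries (horizontal axis, log scale), with 1 point per tested feature. The 69 called rises (red) and 322 called falls (blue) have median folds of 1.34 and 0.761, and 24 of them changed by at least 1 on the log2 scale.

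The doses were also tested apart, against the same 3 controls. At 0.01 µM, 17 features (0.101%) passed, 6 higher (0.0358%) and 11 lower (0.0656%), and in the 9 fits that left out 1 library the count ran from 1 (without 0.1 µM replicate 1) to 21, with 2 and 3 without replicates 3 and 2 of this dose. At 0.1 µM edgeR called none (0.0%), with 2100 features at an unadjusted p under 0.05, and DESeq2 called 228. In the direct comparison of the doses, 1 feature (0.00596%) differed, an unannotated locus described at the end, and 2.02% of features had an unadjusted p under 0.05. A gene that passed at 0.01 µM and not at 0.1 µM is not shown to differ between them by that alone.

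MATR3 rose by 1 of its gene records and fell by the other. The annotation holds 2 records with this symbol on the plus strand of chromosome 5, ENSG00000015479.18 at chr5:139293648-139331677 and ENSG00000280987.4 at chr5:139273752-139331671 (GRCh38, GENCODE 29). They share 5141 exonic bases, 80.9% of the shorter record, and 2 coding sequences that are identical in both, so reads from the shared exons cannot be told apart. The start of that shared coding sequence is shown because the results turn on a transcript that 2 records claim; the capitals mark the start codon.
MATR3, both records: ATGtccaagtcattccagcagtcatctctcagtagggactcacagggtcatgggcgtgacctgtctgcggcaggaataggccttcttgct

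Record ENSG00000015479.18 of MATR3 stood at 87.7, 77.15 and 92.95 CPM in the controls, at 156, 142 and 121 CPM at 0.01 µM, and at 123, 114 and 146.5 CPM at 0.1 µM. All 6 treated libraries lay above all 3 controls. The log2 fold change of the pooled doses was 0.64 ± 0.102 (SE, 95% interval 0.42 to 0.86, adjusted p = 0.0152). Record ENSG00000280987.4 of MATR3 moved the other way, from 234.5, 219 and 279.5 CPM in the controls to 154, 144 and 158 CPM at 0.01 µM and 181, 197 and 169.6 CPM at 0.1 µM. Here every treated library lay below every control, and the log2 fold change was -0.55 ± 0.0985 (SE, adjusted p = 0.0275). Without control replicate 3 neither MATR3 record passed (adjusted p = 0.0541 and 0.0994), with log2 fold changes of 0.70 and -0.44.

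The sum of the 2 MATR3 records was 322, 296 and 372 CPM in the controls and 279 to 316 CPM in the treated libraries, so the groups overlapped. Its log2 fold change was -0.13 (95% interval -0.30 to 0.03, adjusted p = 0.291). What differed was the division of the counts between the records: ENSG00000015479.18 held 27.2%, 26.1% and 25% of them in the controls, 50.3%, 49.7% and 43.5% at 0.01 µM, and 40.4%, 36.6% and 46.3% at 0.1 µM.

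SCAF8 fell, and its neighbour TIAM2 rose by about as much. SCAF8 (ENSG00000213079.9, chr6:154733325-154834244, plus strand) stood at 36.6, 37.5 and 39.5 CPM in the controls, 27.9, 24.9 and 25.7 CPM at 0.01 µM, and 32.0, 30.75 and 29.35 CPM at 0.1 µM. No treated library reached the lowest control, and the log2 fold change was -0.41 ± 0.0841 (SE, 95% interval -0.59 to -0.23, adjusted p = 0.0308). SCAF8 passed in 5 of the 9 fits that left out 1 library, and without control replicate 3 its log2 fold change was -0.38 (adjusted p = 0.0908). At 0.01 µM alone its log2 fold change was -0.53 (adjusted p = 0.0371), at 0.1 µM -0.30 (adjusted p = 0.216), and the doses did not differ in the direct test (log2 difference 0.23, adjusted p = 1.0).

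The end of SCAF8 overlaps the start of TIAM2, with 713 shared exonic bases, 13.0% of the shorter record. TIAM2 (ENSG00000146426.18, chr6:154832697-155257723, plus strand) encodes an activator of the small GTPase RAC1. TIAM2 stood at 26.75, 21.96 and 27.2 CPM in the controls, 35.01, 37.7 and 34.2 CPM at 0.01 µM, and 33.35, 31.4 and 35.7 CPM at 0.1 µM. Every treated library lay above the controls, with a log2 fold change of 0.45 (adjusted p = 0.0275; 0.51 and 0.0334 without control replicate 3). The sum of SCAF8 and TIAM2 differed by -0.003 on the log2 scale (95% interval -0.14 to 0.13, adjusted p = 0.98), of which TIAM2 held 36.9% to 42.2% in the controls. Its share was 55.7% to 60.2% with 0.01 µM caffeine and 50.6% to 54.9% with 0.1 µM.

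Further pairs of records showed the same opposition. COX15, which makes the haem A of cytochrome c oxidase, stood at 22.5, 21.65 and 16.4 CPM in the controls, 41.8, 34.5 and 37.1 CPM at 0.01 µM, and 33.0, 35.2 and 33.1 CPM at 0.1 µM. It was the rise with the smallest p among genes with a symbol (log2 fold change 0.82 ± 0.106 SE, adjusted p = 0.00971) and kept its call in each of the 9 fits without 1 library. The record ENSG00000285932.1 shares 1069 exonic bases with COX15 (54.2% of the shorter record) and fell by 0.34 on the log2 scale (adjusted p = 0.045). Their sum differed by -0.03 (95% interval -0.17 to 0.12). RBM34, an RNA-binding protein gene, rose by 0.39, and ARID4B, a chromatin-binding protein gene that shares 1603 exonic bases with it, fell by 0.32 on the log2 scale. Neither passed without control replicate 3 (RBM34 0.35, adjusted p = 0.0541; ARID4B -0.20, adjusted p = 0.117). The sum of RBM34 and ARID4B differed by -0.08 (adjusted p = 0.431).

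**Figure D2:**
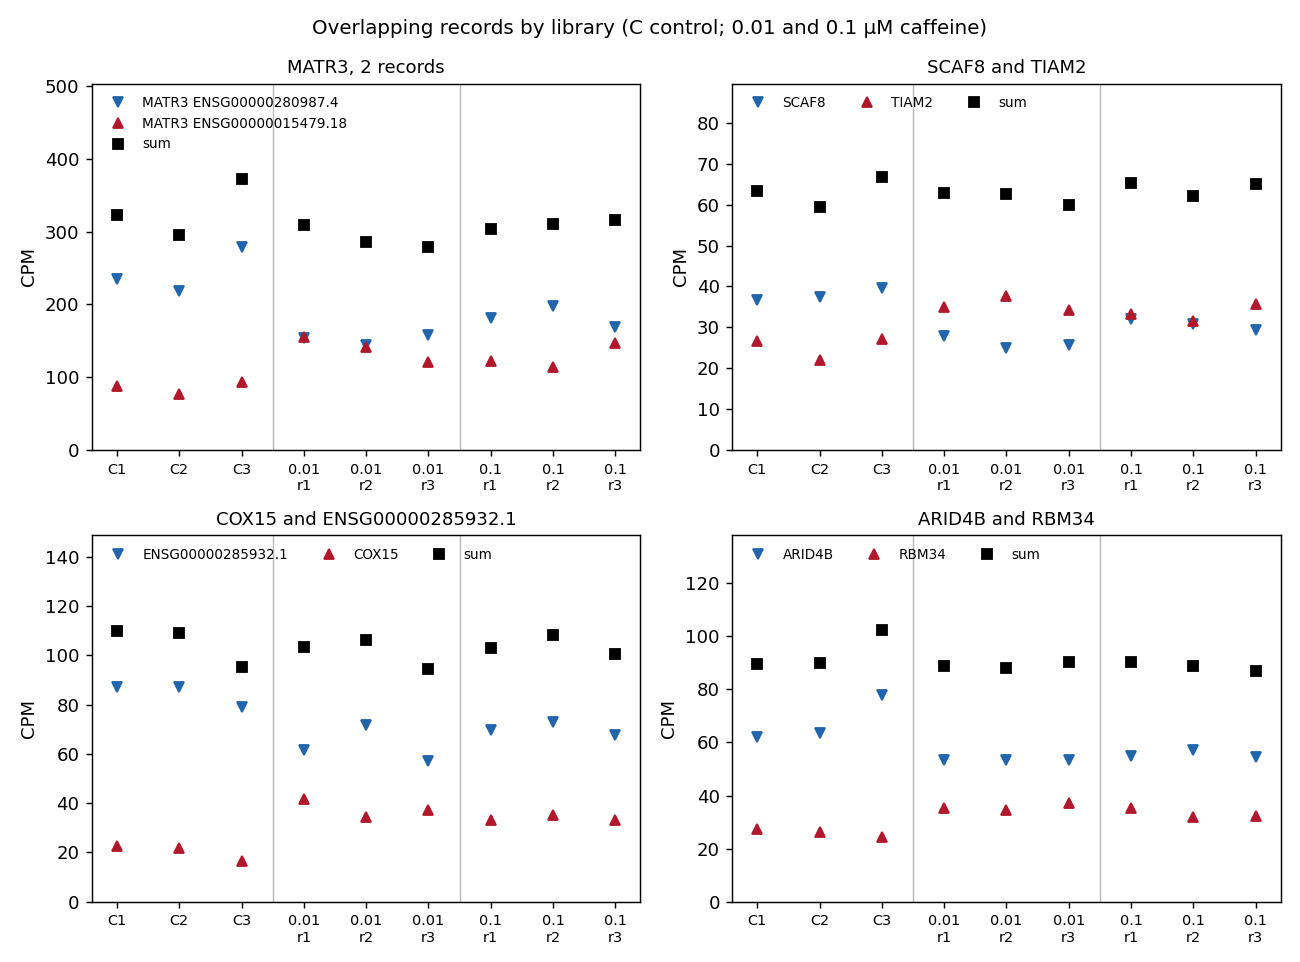
CPM (vertical axis) of 4 pairs of same-strand overlapping records and of their sums in the 9 libraries (horizontal axis; C1 to C3 are the controls). In each pair the red record lies higher and the blue record lower with caffeine, while the sums (black) overlap between the groups.

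Not every pair summed to a level near control. PPP1CB, a catalytic subunit of protein phosphatase 1, fell from 97.9, 106.5 and 118 CPM in the controls to 69.1 to 80.9 CPM (median 73.65) in the treated libraries (log2 fold change -0.53 ± 0.0727 SE, adjusted p = 0.00971). It shares 13.2% of the shorter record with SPDYA, an activator of cyclin-dependent kinases, which was higher by 0.45 without passing (adjusted p = 0.0791). The sum of PPP1CB and SPDYA was lower too, by -0.29 on the log2 scale (adjusted p = 0.0419), and did not pass without control replicate 3 (-0.20, adjusted p = 0.113). In all, 48 same-strand pairs of tested records that share at least 10% of the shorter one held a called record. In 21 of them the members had opposite signs, and the sum passed in 3 of those 21. A partner of opposite sign brings a sum nearer to the control level by arithmetic, so these counts are a description. The share of opposite signs among pairs without a called record was not counted. Of 1075 tested records sharing at least 50% of the shorter one with a same-strand partner, 2.98% were called, where 2.33% of all features were. When records sharing at least 50% of the shorter one were summed before the fit, 402 features (2.46%) passed.

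At the higher doses the division of the MATR3 counts did not stay at its low-dose level. ENSG00000015479.18 held 37.3%, 37.6% and 21.6% of the MATR3 counts in the libraries at 1 µM. With 10 µM caffeine its share was 18.3% to 21.8%, with 100 µM 17.3% to 23.3% and with 1000 µM 17.0% to 23.0%. TIAM2 held 47.8%, 53.9% and 35.3% of the counts of TIAM2 and SCAF8 in the libraries at 1 µM, of which the first and the second lay above every control. Its share was 33.7% to 40.6% with 10 µM caffeine, 15.2% to 30.7% with 100 µM and 18.1% to 18.9% with 1000 µM. COX15 held 17.2% to 20.5% of the counts of its pair in the controls. In the 6 libraries with 1 or 10 µM its share was above theirs, with a range of 24.7% to 34.8%, and with 100 µM (19.8% to 28.9%) and 1000 µM (9.82% to 26.6%) it overlapped them. The share of RBM34 in the RBM34 and ARID4B counts was 24.0% to 30.7% in the controls and 33.0% to 45.5% across all 6 doses. Differences between the pairs were not tested. The mitochondrial share of counts was 4.72% to 12.8% in the 12 libraries at 1 µM and above, and its part in these shares was not tested.

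**Figure D3:**
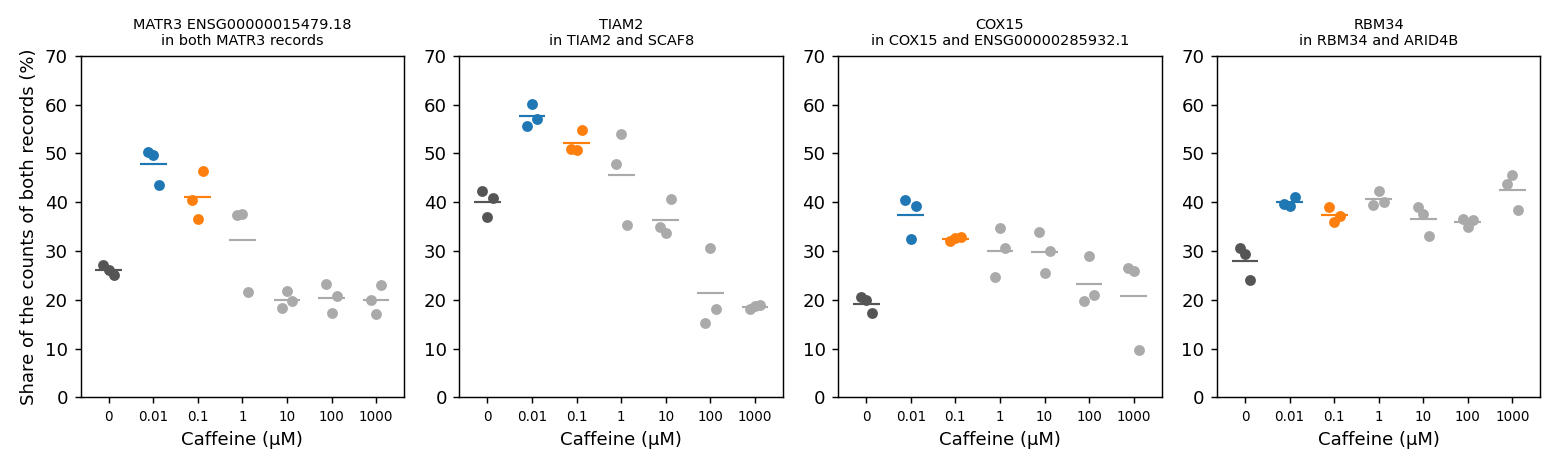
Share (%) of the counts of 2 overlapping records that fell to the named record (vertical axis) by caffeine dose (horizontal axis, not to scale), with 1 point per library and a line at the mean of 3. The MATR3 and TIAM2 shares are highest at 0.01 µM, at 43.5% to 50.3% and 55.7% to 60.2%.

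Beyond the pairs, the 12 largest rises among called genes with a symbol, a mean of at least 5 CPM and no overlap between groups ran from 1.39-fold to 1.85-fold. They are described by what their products do, and no theme was tested among them. IGFBP1, a binding protein for insulin-like growth factors that hepatocytes secrete, stood at 95.7, 96.8 and 110.5 CPM in the controls and at 141, 148 and 172 CPM at 0.01 µM and 120.4, 141 and 141 CPM at 0.1 µM. Its lowest treated library lay above its highest control (log2 fold change 0.51 ± 0.0947 SE, adjusted p = 0.0275; 0.0464 without control replicate 3). CA9, a carbonic anhydrase induced in low oxygen, stood at 6.68, 7.91 and 7.78 CPM in the controls and at 9.79 to 15.8 CPM (median 11.5) in the treated libraries, a log2 fold change of 0.68 (adjusted p = 0.0275). PTAFR, the receptor for platelet-activating factor, rose by 0.54.

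The other rises were of genes with varied products. DMAC1, an assembly factor of respiratory complex I, stood at 6.41, 6.11 and 7.86 CPM in the controls and at 8.89 to 10.3 CPM (median 9.36) with caffeine, a log2 fold change of 0.48 that passed without control replicate 3 as well (adjusted p = 0.0308 and 0.023). BSCL2, or seipin, which shapes lipid droplets, rose by 0.47, and FADS3, of the fatty acid desaturase family, rose by 0.49. EMC6, of a complex that inserts proteins into the endoplasmic reticulum membrane, rose by 0.50, and P3H4, of a complex that modifies collagen lysines there, rose by 0.47. PRIM1, the catalytic subunit of DNA primase, rose by 0.49 and FBXO16, of the F-box family, by 0.89. BSCL2 shares 40.6% of its shorter record with HNRNPUL2-BSCL2 on the same strand, and their sum differed by 0.08 (95% interval -0.10 to 0.25, adjusted p = 0.591). CA9 shares exons with ARHGEF39 and EMC6 with P2RX5-TAX1BP3 on the opposite strand, and whether the counting used strand is not given in the sources used here.

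The 12 largest falls ran from 0.503-fold to 0.648-fold. FOSB, a growth-induced transcription factor of the AP-1 family, fell most, from 40.85, 38.3 and 33.1 CPM in the controls to 23.2, 17.6 and 21.5 CPM at 0.01 µM and 15.8, 11.6 and 23.2 CPM at 0.1 µM. Its log2 fold change was -0.99 ± 0.192 (SE, adjusted p = 0.0354), and it passed in 2 of the 9 fits without 1 library. EGR1, another growth-induced factor, stood at 25.4, 24.55 and 14.2 CPM in the controls and at 10.4 to 14.7 CPM (median 13.4) with caffeine. Its groups overlapped through control replicate 3, and its log2 fold change was -0.73 (adjusted p = 0.0442; -0.94 and 0.0135 without that library). Of 18 tested immediate early genes these were the 2 called (11.1%, where 2.33% of all features were), the list median was -0.11, and 8 lay on the higher side, up to IER3 (log2 difference 0.56, adjusted p = 0.0718).

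The other large falls included RPL37 (a ribosomal protein, log2 fold change -0.66), RBIS (ribosome biogenesis, -0.67), MRPS36 (a protein of the mitochondrial matrix, -0.65), ATP5ME (a subunit of ATP synthase, -0.79), PFDN4 and ASDURF (prefoldin subunits, -0.73 and -0.79) and TP53RK (a kinase of the complex that modifies transfer RNA, -0.79). TSTD3 (-0.76), the noncoding RNA CHASERR (-0.78), the centriole protein CETN3 (-0.63) and the mitochondrial MT-ND4L (-0.68) made up the 12. PFDN4 shows the pattern by library, at 107, 121 and 184 CPM in the controls and 72.7 to 96.8 CPM (median 82.05) in the treated libraries. Control replicate 3 was the highest of the controls in 11 of the 12 falls, and 2 of the 12 (MRPS36 and CETN3) passed without it. Of the 12 rises, 3 passed without it (COX15, IGFBP1 and DMAC1). The median log2 fold change of the 12 falls was -0.75, and -0.53 without that library, and 1 of them (FOSB) was at least as large there. For the 12 rises the medians were 0.50 and 0.57, and 6 were at least as large without it, CA9 (0.71), PTAFR (0.55) and PRIM1 (0.53) among them.

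**Figure D4:**
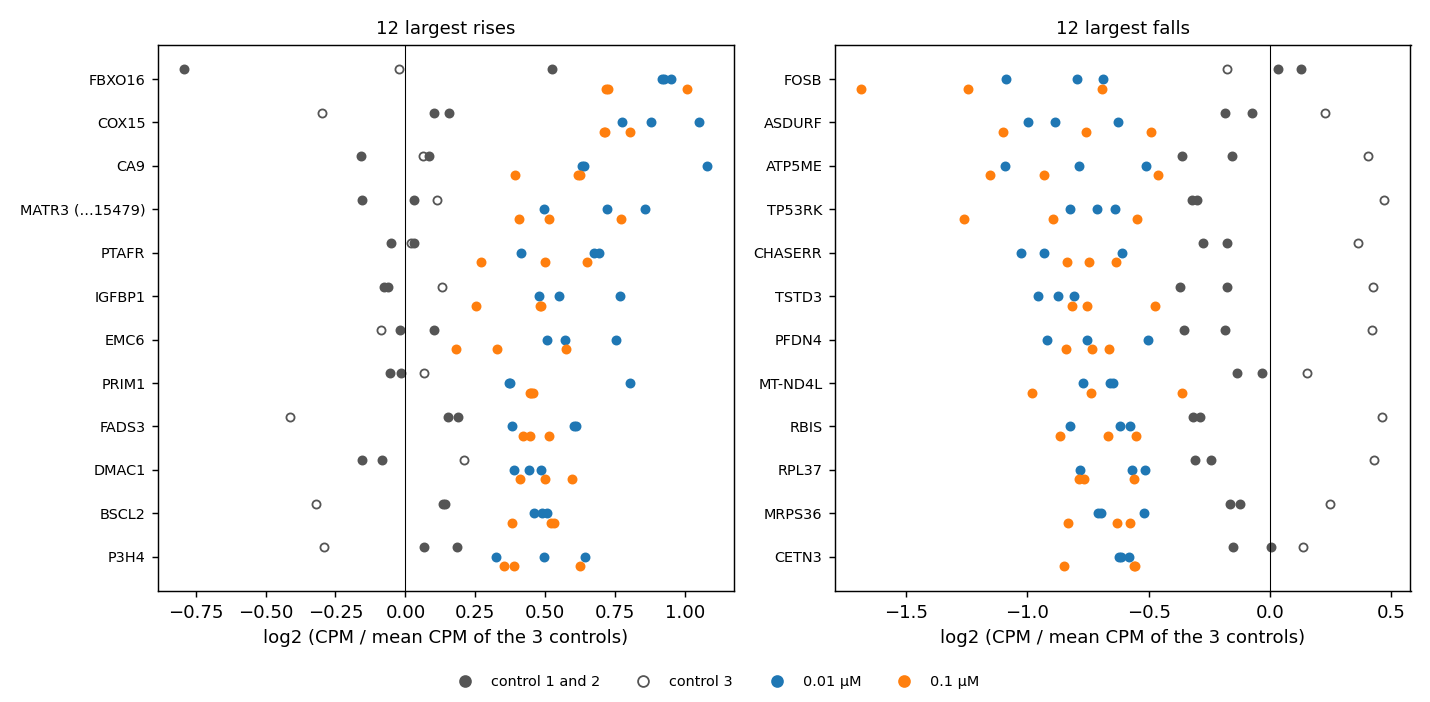
Log2 ratio of each library's CPM to the mean of the 3 controls (horizontal axis) for the 12 largest rises (left) and the 12 largest falls (right), with control replicate 3 as an open circle. The treated libraries of each gene lie on 1 side of all controls, and in 11 of the 12 falls the open circle lies farthest from the treated libraries.

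Among these 24 genes the mean at 0.1 µM was lower than at 0.01 µM, and so nearer to control, for 11 of the 12 rises; it was lower, and so farther from control, for 8 of the 12 falls. Each direct test between the doses gave an adjusted p of 1.0. Of the 12 rises, 4 passed at 0.01 µM alone, and no rise or fall among the 24 passed at 0.1 µM alone.

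The called falls were poor in G and C. Their median exonic GC content was 37.9%, that of the called rises 52.9% and that of all tested features 48.9% (known for 92.6% of the called and 90.6% of the tested features). Of the called falls with a value, 71.4% lay under 40% GC, where 15.2% of all tested features did. Of the 251 tested features under 35% GC, 16.7% were called lower, and of the 2287 at 60% or more, 0.0875% were. Among the named genes some went the other way. The falls FOSB and ATP5ME had 57.7% and 56.05% GC, and the rises MATR3 (ENSG00000015479.18) and PRIM1 37.6% and 40.7%. The coding starts below are of the 12 falls' member lowest in GC and the 12 rises' member highest in it, with the start codon in capitals. The whole coding sequence is 36.3% GC in CETN3 and 65.4% in P3H4 (GENCODE 29).
CETN3: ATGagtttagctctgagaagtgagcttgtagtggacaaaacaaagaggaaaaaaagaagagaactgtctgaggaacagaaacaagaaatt
P3H4: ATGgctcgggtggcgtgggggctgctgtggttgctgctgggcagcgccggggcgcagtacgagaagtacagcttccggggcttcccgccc

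Control replicate 3 moved with GC content in the same sense. Its features under 35% GC had a median of 0.33 above the mean of the 9 libraries in log2(CPM + 1), those at 60% or more a median of -0.33, and no other library left the range from -0.12 to 0.17 in those classes. The median log2 fold change under 35% GC was -0.30, and -0.18 without control replicate 3. With each library's trend on GC content removed, 124 features (0.74%) passed, 70 higher and 54 lower, of which 81 were among the 391. No trend could be removed from features without a GC value, which made up 29 of the 391, 18 of the 124 and 18 of the 81. With the trend removed and control replicate 3 left out, 32 features (0.187%) passed, 10 of them without a GC value. The median log2 fold change of the 322 called falls was -0.19 with the trend removed and -0.20 with that library also left out; that of the 69 called rises was 0.34 and 0.32. Of the 11 named falls with a GC value, 4 passed with the trend removed (CHASERR, TSTD3, MT-ND4L and MRPS36); ASDURF has no value. Of the 12 rises, 6 did (COX15, MATR3, IGFBP1, PRIM1, DMAC1 and BSCL2).

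**Figure D5:**
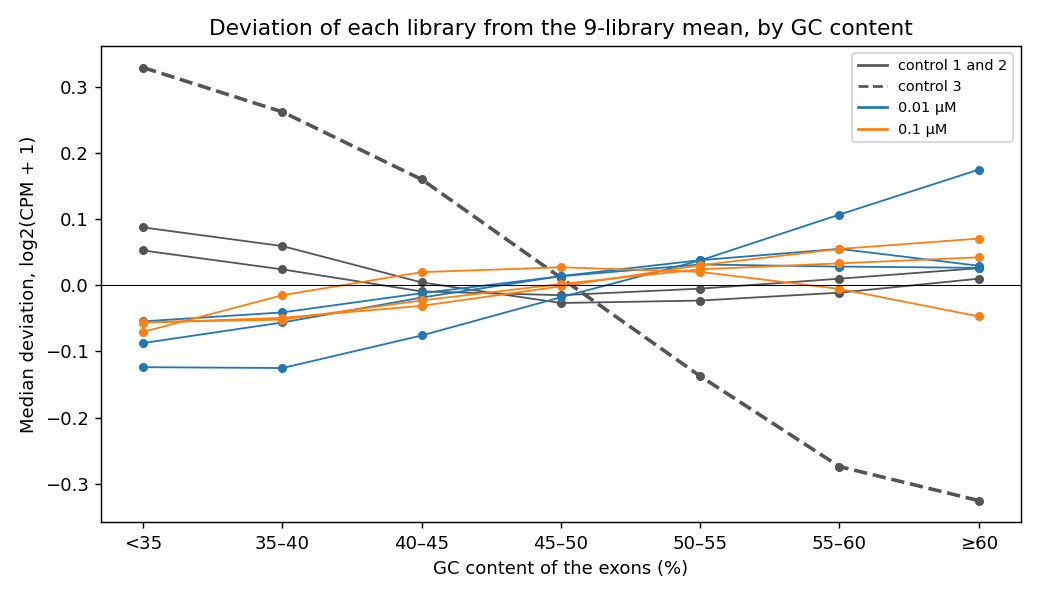
Median deviation from the mean of the 9 libraries in log2(CPM + 1) (vertical axis) by class of exonic GC content (horizontal axis, %), with 1 line per library. Control replicate 3 (dashed) runs from 0.33 under 35% GC to -0.33 at 60% or more, and the other 8 lines stay closer to 0.

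The calls that did not rest on any 1 library were few. In each of the 9 fits that left out 1 library, 19 features passed, 3 higher and 16 lower, and 11 of them have a symbol. These were chosen after their values were seen. COX15 was the rise, and the falls were PPP1CB, CETN3, MRPS36, VPS26A, GIPC2, CMPK1, GEN1, ZNF138, GMFB and the pseudogene NAMPTP1. VPS26A, a subunit of the retromer that recycles membrane proteins, stood at 103, 107 and 125 CPM in the controls and at 76.4 to 84.03 CPM (median 81.1) with caffeine, a log2 fold change of -0.47. GEN1, a nuclease that resolves DNA junctions, stood at 32.3, 30.9 and 35.1 CPM in the controls and at 21.4 to 24.8 CPM (median 23.0) with caffeine, a log2 fold change of -0.52 (adjusted p = 0.00971). With the GC trend removed COX15, VPS26A, MRPS36, GIPC2, GEN1 and NAMPTP1 still passed. With the mitochondrial share as a covariate COX15 (log2 fold change 0.68, adjusted p = 0.0536) and GEN1 (-0.52, 0.081) did not pass. Neither did PPP1CB (-0.47, 0.0868), CETN3 (-0.55, 0.087) or MRPS36 (-0.54, 0.131) in that fit. Reads of NAMPTP1 may come from its parent gene NAMPT, since the copies are nearly identical.

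The known targets of caffeine and the enzymes that turn it over gave 0 calls, a count near the share of all features. The lists of adenosine receptors and turnover, phosphodiesterases, calcium release, ATM-family kinases and caffeine metabolism held 64 genes in the table, 47 of them tested, of which 0 passed in either direction where 2.33% of all features did. ADORA2B, the adenosine receptor with low affinity, came closest among the receptors, at 29.3, 28.65 and 25.2 CPM in the controls and 30.7 to 36.1 CPM with caffeine (log2 difference 0.27, adjusted p = 0.0791). PDE4D, a cyclic AMP phosphodiesterase, differed by -0.27 (adjusted p = 0.0815), ATM by -0.29 (adjusted p = 0.0877) and the calcium-binding chaperone CALR by 0.205 (adjusted p = 0.102). NAT1 and CYP1A1 were the 2 of 11 metabolising genes that could be tested. CYP1A1 stood at 2.51 to 3.05 CPM in the controls and 2.74 to 3.39 CPM with caffeine.

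The lists of downstream programmes held 0 to 3 calls each, where 2.33% of all features were called. Of the 19 tested targets of cyclic AMP and CREB, 1 rose (IGFBP1) and 2 fell (FOSB and EGR1), 15.8% in all. The median log2 fold change of that list was 0.11, and 0.06 without control replicate 3, where that of all features was 0.01. Of 9 targets of the aryl hydrocarbon receptor, 0 passed, with a median of 0.30, which was 0.16 without control replicate 3 and 0.18 with the GC trend removed. Of 24 sterol synthesis genes, 18 lay on the higher side, with a list median of 0.15 (0.09 without control replicate 3), and the call was a fall: SC5D, a late desaturase of the pathway, was at 239, 243 and 282 CPM in the controls and 190.1 to 208 CPM with caffeine (log2 fold change -0.34, adjusted p = 0.0275; -0.26 and 0.056 without control replicate 3). Of 25 genes of the unfolded protein and integrated stress response, 0 passed.

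Among 23 p53 targets, CCNG1 (-0.47) and RRM2B (-0.38) fell and none rose, 8.7% of the list. Among 25 cell cycle genes, the mitotic kinase PLK1 rose by 0.38, while CENPE, a motor of the kinetochore, fell by 0.38 and CDK1, the kinase that drives mitosis, fell by 0.39 (12% of the list). Neither CCNG1, RRM2B, CENPE nor CDK1 passed once the GC trend was removed, where PLK1 did (adjusted p = 0.0386). Without control replicate 3, 0 genes of either list passed (PLK1 0.30, adjusted p = 0.0844), and PLK1 kept its call in 2 of the 9 fits without 1 library. Of 15 genes that responded at the highest dose in earlier results of these data, IGFBP1 alone was called, higher. Its mean was 103 CPM in the controls and 3357 CPM at 1000 µM when all 21 libraries were scaled together.

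The lists of proteins that act in the same steps as MATR3 and SCAF8 held calls at shares of 0% to 5.26%, where 2.33% of all features were called. Among 38 records of hnRNP and paraspeckle proteins the called ones were the 2 MATR3 records. Among 34 factors of the polymerase tail and of 3′ end formation SCAF8 was the call, and 0 of 22 SR splicing factors and their kinases passed. Of 10 nuclear-retained noncoding RNAs, MALAT1 alone was called (10%, where 1.92% of all features were called lower). It fell from 225.5, 221.5 and 281 CPM in the controls to 169 to 200.4 CPM (median 187). Its log2 fold change was -0.38 (adjusted p = 0.0343, and 0.106 without control replicate 3). In that list 0 of the 10 lay on the higher side. The list median was -0.18 with or without control replicate 3, and -0.08 with the GC trend removed.

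Ribosomal protein genes were called in both directions and mitochondrial transcripts lower, and most of these calls were lost without control replicate 3, the library with the highest mitochondrial share. Of 85 cytosolic ribosomal protein genes, RPL13, RPL18 and RPS15 rose (0.40, 0.36 and 0.41), RPL37 and RPS21 fell (-0.66 and -0.51), and the median was -0.09. That is 5.88% called, where 2.33% of all features were. Without control replicate 3, 2 ribosomal protein genes were higher and 0 lower, with a median of 0.04, and with the GC trend removed 1 was higher and 0 lower. Of 15 mitochondrial transcripts, MT-ND4L and MT-CYB fell (-0.68 and -0.41), where 1.92% of all features were called lower, and the median was -0.28. Without control replicate 3, 0 mitochondrial transcripts passed and the median was -0.06, while MT-ND4L stood at -0.59 (adjusted p = 0.0994). With the GC trend removed both were still called, with a list median of -0.23. MT-CYB, a subunit of respiratory complex III, stood at 1645, 1880 and 2133 CPM in the controls and 1301 to 1519 CPM with caffeine. The ribosomal RNA MT-RNR2 stood at 64.6, 43.8 and 56.5 CPM in the controls, 167.5, 527 and 227.5 CPM at 0.01 µM, and 323, 184 and 132 CPM at 0.1 µM. All 6 treated libraries of MT-RNR2 lay above the controls, but the spread was wide (log2 difference 2.24 ± 0.512 SE, adjusted p = 0.0719). In none of 21 tested histone genes was a change called.

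The tested markers of other cell types were too few, at 4, 2 and 3, for a count of calls to be read against the 2.33% of all features. CD3E (T cells), COL1A2 (fibroblasts) and KRT7 (bile duct) were at 0 counts in all 9 libraries, and no endothelial marker passed the filter. Of the 4 tested leukocyte markers, 0 passed, with a summed level of 915 to 1022 CPM in the controls and 840.1 to 976 CPM with caffeine, of which LYZ gave 785 to 982 CPM. Of 2 fibroblast markers 0 passed (36.5 to 42.0 CPM summed in the controls, 37.0 to 45.6 CPM with caffeine), and of 3 bile duct markers 0 passed (675 to 731.5 and 714 to 814 CPM). With the GC trend removed 1 of the bile duct markers, KRT19, passed (0.26, adjusted p = 0.0386; 0.40 and 0.0503 as reported here). Among the hepatocyte genes TTR, the carrier of thyroid hormone and retinol-binding protein, rose by 0.33 (adjusted p = 0.0343; 0.0871 without control replicate 3).

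Of the 1434 tested unannotated loci, 25 (1.74%) were called, where 2.33% of all features were. A locus without identifier in the annotation had 0 counts in each control, 8, 24 and 20 counts at 0.01 µM and 15, 14 and 17 counts at 0.1 µM. Taking 3 counts over the control group as the limit that a count of 0 allows, it was at least 15.8-fold higher with caffeine, and this covers counting error only. It met the filter on low counts through the treated libraries alone, so its values are a description with no test. Another was the feature that differed between the doses, with 88, 73 and 78 counts in the controls, 0 in each library at 0.01 µM, and 36, 23 and 38 counts at 0.1 µM. It was at least 84-fold lower at 0.01 µM than in control, by counting error only, which is given as a description. At 0.1 µM it was at least 33.5-fold higher than at 0.01 µM (adjusted p = 0.00274), and the controls alone took it past the filter on low counts. The coordinates of these loci are not given in the sources used here.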

How the data were processed

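The authors deposited raw read counts per feature, whole numbers without normalization; per the submitters' processing notes HISAT2, DESeq2 and GRCh38 were used, with no version or role, and the counting tool, annotation and use of strand are not given in the sources used here. The table holds 37637 features, 4700 of them unannotated loci, and a further 21 columns with values by sample stayed unused. Replicates differed by more than counting noise (chi-square per feature of at least 8.64 over 9 pairs).

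Features were filtered with filterByExpr by arm, normalized by TMM and compared over the 9 libraries with the robust quasi-likelihood F-test of edgeR 4.0.16 under R 4.3.3. Two-sided p-values were adjusted by Benjamini-Hochberg over all 16767 tested features, with a threshold of 0.05. CPM are relative to the counts in tested features, with TMM-scaled sizes. The SE is the absolute log2 fold change over the square root of F. Each dose was tested in a fit with a mean per group. Exon overlap, GC content and sequences came from GENCODE 29, which may not be the authors' annotation (32338 of 32937 Ensembl identifiers found).

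The members and the 25 gene lists were chosen with earlier results of these data known. Named were MATR3 and SCAF8, the 12 largest rises and falls (called, with a symbol, at least 5 CPM, no overlap), the 3 smallest p for each dose comparison, up to 4 members of each list by smallest p, and the genes known to respond at the highest dose. The fits were tested on simulated counts. Alternatives included DESeq2 1.42.0, limma-voom (limma 3.58.1), other filters, each library left out in turn and, chosen after the data were seen, overlapping records summed and the GC trend removed.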

Additional observations from a re-analysis of the deposited data

Results flagged for a closer look

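In the 6 treated libraries, 1 library lay far from the other 5 for 10 of 164 values checked, with a limit that flags about 1 in 20 by chance. The genes checked were chosen on these data, so that rate is only a guide, and most of the flagged values came from 1 library. At 0.01 µM replicate 3 these were CA9 at 15.8 CPM, ATR at 15.0 CPM, PTBP3 at 115 CPM, TTR at 123 CPM, SNHG14 at 120.6 CPM and ZNF518A at 66.0 CPM. At 0.01 µM replicate 2 it was PRIM1 at 34.9 CPM, at 0.1 µM replicate 1 CETN3 at 8.55 CPM and MSMO1 at 155 CPM, and at 0.1 µM replicate 3 CENPQ at 10.5 CPM.

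An unannotated locus differed between the doses in the direct test, with 0 counts at 0.01 µM and 23 to 38 counts per library at 0.1 µM (adjusted p = 0.00274), and 73 to 88 in the controls. In the same test 2 records of the pseudogene ANAPC1P2 and FAM220A had the smallest p among named genes and did not pass. FAM220A stood at 6.63, 9.65 and 14.7 CPM at 0.01 µM and 1.83, 2.78 and 1.59 CPM at 0.1 µM (log2 difference -2.31, adjusted p = 0.179).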

How the results depend on the processing

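Of 22 alternatives, 16 moved the number of pooled calls by over 1.5 times, and the other 6 gave 266 to 516 (404 with DESeq2 size factors, 402 with overlapping records summed, 466 with annotated features only and 516 without a filter). The pooled comparison gave 391 with the settings reported, 1328 with the DESeq2 Wald test, 627 at a mean of at least 5 CPM, 183 with limma-voom, 174 with a mean per dose, 124 with the GC trend removed, 32 with that and control replicate 3 left out, 26 in a fit of all 21 libraries and 8 with the mitochondrial share as a covariate. The share of calls that were higher was 17.6%, and 36.0% without control replicate 3, 36.1% with DESeq2, 56.5% with the GC trend removed and 62.5% with the covariate. Leaving out each library in turn gave 24 to 649 pooled calls (24 without 0.01 µM replicate 2, 33 without replicate 1 or 3 of that dose, 45, 93 and 266 without replicates 1, 2 and 3 at 0.1 µM, and 275, 649 and 50 without control replicates 1, 2 and 3), 1 to 21 with 0.01 µM, 0 to 13 with 0.1 µM and 1 to 4 between the doses. It gave 2314 to 4257 features without overlap, 2 to 26 calls in the gene lists (21 as reported), and 0 among the library measures, where a lone measure could not pass.

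At 0.01 µM, 17 calls became 800 with DESeq2, 673 without a filter, 72 at 5 CPM, 42 with the GC trend removed, 7 with the covariate, 5 with all libraries and 3 with limma-voom. At 0.1 µM, 0 became 228, 182 without a filter and 1 with the GC trend removed. Between the doses, 1 became 7 with DESeq2, 5 without a filter, 3 with only those groups, 2 with the covariate and 0 with all libraries or annotated features only. The gene lists gave 74, 33 at 5 CPM, 10 with the GC trend removed, 3 with control replicate 3 also left out, 2 with all libraries and 0 with the covariate.

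Same-numbered replicates showed no clear common variation (r from -0.13 to 0.15, over 0.1 in 1 of 9 pairs). With 3 libraries per group this check cannot exclude that the numbers pair the libraries. With the replicate block the calls were 182 pooled, 23 at 0.01 µM and 3 between the doses. Of the values of called genes under the alternatives, 1014 stayed called, 651 lost the call and 4 turned sign. The 4 were the sums with an overlapping record, for MATR3 (ENSG00000015479.18) -0.13 and for COX15 -0.028 and -0.029; a sum counts reads of both records, so it is another quantity than the record alone. The median SE of a log2 fold change was 0.103, which limits what these 9 libraries can show.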

Other observations

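Gene groups noticed only after the values were seen are given as description, where 0.412% of all tested features were called higher and 1.92% lower. Of 30 tested hypoxia-inducible genes, 4 were called higher (CA9, ADM, BHLHE40 and NDUFA4L2) and 1 lower (PLOD2), with a median log2 fold change of 0.12. BHLHE40, a transcriptional repressor tied to the circadian clock, stood at 41.8, 46.3 and 43.05 CPM in the controls and at 53.65 to 62.7 CPM (median 55.3) with caffeine. Of 17 TGF beta targets, 3 were called higher (TAGLN, BMP4 and TGM2) and 0 lower, with a median of 0.16. TAGLN, an actin-binding protein of contractile cells, stood at 94.6, 96.4 and 77.5 CPM in the controls and at 110.0 to 132 CPM (median 121) with caffeine, and passed without control replicate 3 (adjusted p = 0.0464). Without that library 0 of the hypoxia genes and 1 of the TGF beta targets passed, with medians of 0.12 and 0.12.

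Of 42 kinetochore and cohesion genes, 9 were called lower and 0 higher, with a median of -0.17, which was -0.05 without control replicate 3 and 0.002 with the GC trend removed. SGO2, which protects cohesion at centromeres, stood at 40.02, 38.6 and 49.7 CPM in the controls and at 28.7 to 32.9 CPM (median 30.1) with caffeine. Of 422 tested zinc finger genes named ZNF, 21 were called lower (4.98%) and 0 higher, with a median of -0.09, which was -0.07 and -0.03 in those fits. The median GC content was 40.9% in the kinetochore group and 43.35% in the ZNF group, where that of all tested features was 48.9%. With the GC trend removed 0 and 1 of these genes were called lower, and without control replicate 3 the counts were 1 and 2.

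The annotated record with the smallest p was ENSG00000285542.1, which overlaps PPM1B on the same strand by 1546 exonic bases. It stood at 5.93, 9.34 and 5.79 CPM in the controls and at 1.51 to 2.87 CPM (median 2.33) with caffeine, a log2 fold change of -1.65 (adjusted p = 0.00925). The sum of ENSG00000285542.1 and PPM1B differed by -0.06 (adjusted p = 0.586). An unannotated locus stood at 51.9, 60.6 and 59.1 CPM in the controls and at 74.3 to 101 CPM (median 92.9) with caffeine (log2 fold change 0.66), and was called in each of the 9 fits without 1 library.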
